A study of Bubalus bubalis with 6 samples.

Results

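Circadian clock genes were examined in buffalo muscle stem cells (MuSCs) during proliferation and differentiation. The genes were 10 symbols fixed by name, PER1, PER2, PER3, CRY1, CRY2, ARNTL, CLOCK, DBP, TEF and HLF. Of these, 8 were rows of the deposited gene table, which lists 24616 genes, and 2, PER2 and PER3, were not listed by symbol and were not analysed here. All 8 listed genes had at least 10 counts in total and were tested among 15576 genes.

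The cells were primary MuSCs isolated from fetal buffalo longissimus muscle. The GM samples were 3 samples of proliferating cells in growth medium with fetal bovine serum. The DM samples were 3 samples of cells near confluence that had been switched to differentiation medium, with a low share of horse serum. No other treatment is labelled in either group, and polyadenylated RNA was sequenced. The sources used here give neither the animal or culture behind each sample nor the time of day of collection, so p-values measure only the spread between these samples, which may be technical. Each group is a single stage, and a rhythm in time was not measured.

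The molecular clock is a feedback loop of transcription. ARNTL (also called BMAL1) and CLOCK form a heterodimer that binds E-box elements and switches on the PER and CRY genes, whose proteins return to the nucleus and repress the heterodimer. DBP, TEF and HLF are transcription factors of the PAR bZIP family that carry the rhythm to output genes through D-box elements, and skeletal muscle is known to hold a clock of its own.

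Gene counts per sample ranged from 35615864 to 40305237. Across genes, any 2 GM samples had a Pearson's r of log2 CPM of 0.992, and 0.991 was found between DM replicates 1 and 2. It was 0.982 between DM replicate 3 and either of the other DM samples, so that library stood apart, and values without it are given beside results where its removal changed a call, a direction or a count of overlaps, and beside some others. The label of muscle cells was checked on markers. MYOG, a myogenic regulator of differentiation, rose from 52.9 ± 13.3 CPM to 167 ± 15.5 CPM (SD, n = 3 each), and its log2 fold change was 1.66 (adjusted p = 4.28e-06 from edgeR). MYOD1, a myogenic determination factor, had a log2 fold change of 0.90 (adjusted p = 0.00202 from edgeR), and 1.14, past the call, without DM replicate 3. Among 6 myogenic markers, 2 were called higher and 1 lower. MYF6, MYF5, PAX7 and DES of this list were named after their values were seen. MYF6 was called higher (log2 fold change 3.97) and MYF5 lower (-2.70, adjusted p = 1.02e-08 from edgeR). PAX7 was lower without being called (-0.92, adjusted p = 0.00232 from edgeR). DES did not pass the test (-0.15, adjusted p = 0.217 from edgeR). Of 7 fibroblast markers, 6 were called higher, and their summed level was 35287 to 36036 CPM in GM samples and 97350 to 123303 CPM in DM samples. The summed level of 6 adipocyte markers was 2.37 to 3.75 CPM in GM samples and 6.86 to 8.27 CPM in DM samples, and that of 5 endothelial markers was 3.88 to 4.59 and 5.15 to 6.05 CPM. The 5 leukocyte markers summed to 6.15 to 7.93 CPM in GM samples and 7.13 to 13.5 CPM in DM samples, with at most 2 counts of PTPRC in any sample. CD14, a leukocyte marker named after its values were seen, rose from 54, 45 and 34 counts in GM samples to 335, 274 and 177 in DM samples (log2 fold change 2.75, adjusted p = 9.84e-06 from edgeR). CD68, another leukocyte marker named afterwards, went the other way (log2 fold change -1.04, adjusted p = 0.000912 from edgeR). CSF1R and AIF1 of the same list did not pass the test. The 4 Schwann and glial markers summed to no more than 2.08 CPM in any sample. Called higher and lower were 2 and 0 of the adipocyte, 1 and 2 of the endothelial, 1 and 1 of the leukocyte and 0 and 0 of the Schwann and glial markers. Beside all of these marker counts, 15.0% of all genes tested were called higher and 10.3% lower. In bulk RNA a change in the share of a cell type and a change in RNA per cell cannot be told apart, and the part of these markers in the results on clock genes was not tested.

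The quasi-likelihood test of edgeR was run on the counts, with p-values adjusted over all genes tested. Following the thresholds in the study's methods, a gene was called when its adjusted p-value was under 0.05 and its log2 fold change exceeded 1 in size, and genes under that p-value with a smaller change were counted apart. Fold changes are DM over GM. CPM are counts scaled by library size after TMM normalization. Coordinates are the gene intervals as listed with cattle Ensembl identifiers, with no build named in the tables.

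Of the 8 clock genes, DBP and PER1 were called higher in DM samples and none was called lower, where 15.0% of all genes tested were called higher and 10.3% lower. CRY1 and ARNTL were also higher and TEF lower at an adjusted p-value under 0.05, with changes of less than 2-fold. This makes 5 of 8 genes under that p-value, beside 63.0% of all genes tested. CRY2, CLOCK and HLF did not pass the test. The CPM values of GM and DM samples did not overlap for 6 of the 8 genes, beside 68.8% of all genes tested. The median log2 fold change of the 8 genes was 0.58, and that of all genes tested was 0.03. None of the 8 intervals overlaps another gene in the table.

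**Figure D1:**
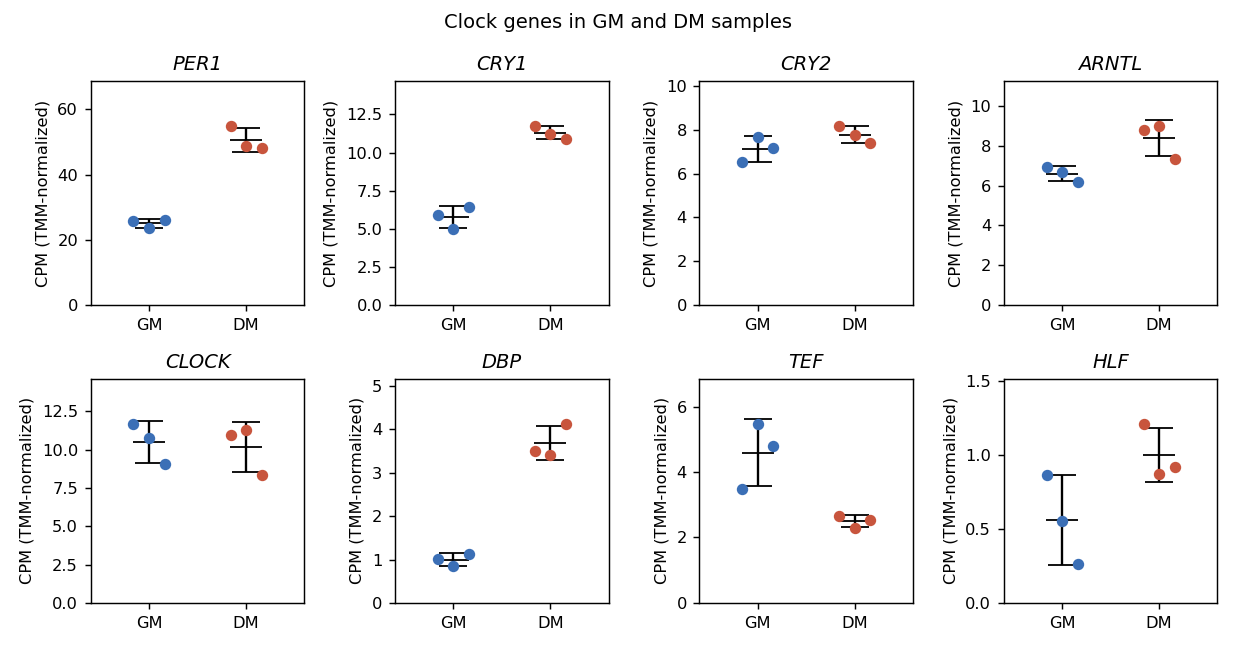
CPM of the 8 listed clock genes in each sample, with TMM-normalized library sizes, on axes that start at 0. Points are the 3 GM samples (blue) and the 3 DM samples (red), drawn from replicate 1 on the left to replicate 3 on the right, and bars give the mean and SD. DM samples lie above GM samples for PER1, CRY1, ARNTL, DBP and HLF, below them for TEF, and among them for CRY2 and CLOCK.

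PER1 (ENSBTAG00000003889, minus strand of chromosome 19, 28390594 to 28399600), a repressor of the ARNTL and CLOCK heterodimer, had the highest counts of the 8 genes. GM replicates 1, 2 and 3 held 1069, 983 and 992 counts and DM replicates 1, 2 and 3 held 1857, 1783 and 1789. All 3 DM samples lay above all 3 GM samples by a gap wider than the spread within either group. PER1 rose from 25.2 ± 1.37 to 50.7 ± 3.73 CPM, and its log2 fold change was 1.01 (adjusted p = 1.35e-06 from edgeR, standard error 0.080). This is a 2.01-fold change, at the edge of the fold threshold. Its log2 fold change lay between 0.91 and 1.07 in 15 alternative settings and it was called in 10 of them. It was 0.91 with library size alone, 0.998 among protein-coding genes only, 0.96 without GM replicate 2 and 0.95 without DM replicate 1, none of them called. Against a fold change of 2 as the null, its adjusted p-value was 0.790 (glmTreat in edgeR).

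CRY1 (ENSBTAG00000010149, minus strand of chromosome 5, 70606115 to 70701030) encodes a cryptochrome, the partner of PER proteins in repression. The GM samples held 244, 207 and 243 counts and the DM samples 397, 411 and 404, in the order of replicates 1, 2 and 3 as for all genes here. The DM samples were close to each other and all above the GM samples. CRY1 went from 5.76 ± 0.725 to 11.3 ± 0.422 CPM, and its log2 fold change was 0.97 (adjusted p = 7.67e-05 from edgeR, standard error 0.13, 95% confidence interval 0.68 to 1.26). The adjusted p-value was under 0.05 in all 14 alternatives other than the test against a fold change of 2. The gene passed the fold threshold in 3 of the 15 alternatives, among them leaving out GM replicate 3 (1.06) or DM replicate 3 (1.01).

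CRY2 (ENSBTAG00000021223, plus strand of chromosome 15, 76753525 to 76790450), the second cryptochrome, did not pass the test. Its counts were 270, 319 and 271 in GM samples and 276, 283 and 274 in DM samples, so the groups overlapped. The level was 7.11 ± 0.580 CPM in GM samples and 7.77 ± 0.385 CPM in DM samples, and the log2 fold change was 0.13 with a 95% confidence interval of -0.15 to 0.41 (adjusted p = 0.403 from edgeR).

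ARNTL (ENSBTAG00000013029, minus strand of chromosome 15, 39841299 to 39948727) and CLOCK (ENSBTAG00000044044, minus strand of chromosome 6, 72574278 to 72633079) encode the activating heterodimer. ARNTL held 287, 278 and 234 counts in GM samples and 297, 329 and 271 in DM samples. Raw counts of ARNTL overlapped between the groups, whereas CPM did not, with 6.59 ± 0.382 in GM samples and 8.37 ± 0.910 in DM samples. Its log2 fold change was 0.34 (adjusted p = 0.0445 from edgeR, standard error 0.13, 95% confidence interval 0.05 to 0.64). The adjusted p-value stayed under 0.05 in 5 of the 14 alternatives other than the test against a fold change of 2. It was 0.138 with library size alone and 0.00661 without DM replicate 3, and leaving out any other sample gave 0.0702 to 0.136. CLOCK held 485, 447 and 343 counts in GM samples and 369, 412 and 308 in DM samples, and its groups overlapped in counts and in CPM. Its log2 fold change was -0.05 with a 95% confidence interval of -0.37 to 0.28 (adjusted p = 0.802 from edgeR), and it was 0.09 without DM replicate 3.

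DBP (ENSBTAG00000006754, minus strand of chromosome 18, 55722336 to 55729578), the PAR bZIP factor named for D-box binding, changed most of the 8 genes. GM replicates 1, 2 and 3 held 42, 35 and 43 counts and DM replicates 1, 2 and 3 held 118, 125 and 153. The lowest DM sample held more counts than any GM sample by a wide margin, and DM replicate 3 was the highest. DBP rose from 0.996 ± 0.147 to 3.68 ± 0.395 CPM, 3.69-fold, and its log2 fold change was 1.88 (adjusted p = 2.99e-05 from edgeR, standard error 0.22). It was called in all 14 alternatives in which it was tested, with log2 fold changes of 1.78 to 1.99 and 1.80 without DM replicate 3. Against a fold change of 2 as the null, the adjusted p-value was 0.00253.

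TEF (ENSBTAG00000016580, plus strand of chromosome 5, 113028012 to 113037944), a second PAR bZIP factor, went the other way. Its counts were 144, 228 and 182 in GM samples and 90, 84 and 94 in DM samples. The DM samples lay close together below all GM samples, and the GM samples were spread, with a coefficient of variation of 22.3% against 7.52% in DM samples (both of CPM). TEF went from 4.58 ± 1.02 to 2.50 ± 0.188 CPM, and its log2 fold change was -0.87 (adjusted p = 0.00374 from edgeR, standard error 0.21, 95% confidence interval -1.33 to -0.41). The log2 fold change was -1.04, past the fold threshold, without GM replicate 1 and -0.73 without GM replicate 2.

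HLF (ENSBTAG00000006618, plus strand of chromosome 19, 5696798 to 5747138), the third PAR bZIP factor, had the fewest counts. GM replicates 1, 2 and 3 held 36, 23 and 10 counts and DM replicates 1, 2 and 3 held 41, 32 and 34. Counts overlapped between the groups, and the CPM of the highest GM sample (0.868) and the lowest DM sample (0.874) were nearly equal. With 0.562 ± 0.302 CPM in GM samples and 1.002 ± 0.185 CPM in DM samples, the log2 fold change was 0.82, with a 95% confidence interval of -0.12 to 1.76 (adjusted p = 0.114 from edgeR). Of the 8 genes HLF varied most within a group, with a coefficient of variation of 53.8% in GM samples (of CPM). HLF was called without GM replicate 1 (log2 fold change 1.28, adjusted p = 0.0403 from edgeR), and its log2 fold change was 0.49 without GM replicate 3.

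**Figure D2:**
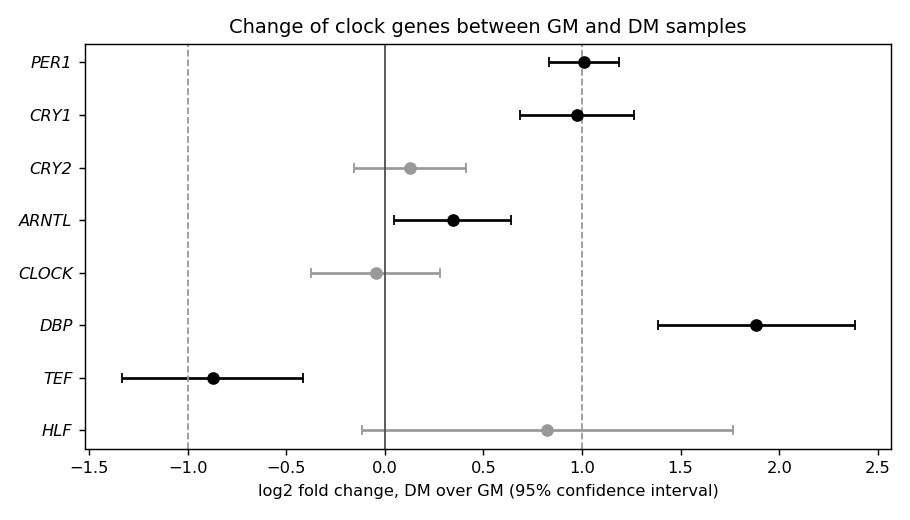
Log2 fold change (DM over GM) of the 8 clock genes, with points for the edgeR estimate and bars for its unadjusted 95% confidence interval. Black marks an adjusted p-value under 0.05 and grey one above it, and dashed lines stand at the fold threshold of 1 in either direction. DBP, at 1.88, is the gene whose interval lies wholly past the threshold, and the interval of PER1 spans 0.83 to 1.19.

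The table of mRNA transcripts lists 1 transcript for each of the 8 genes, with the same length and the same counts in every sample as the gene table, so it is no second measurement. In a fit of that whole table, 1 of the 8 transcripts, that of DBP, was called, where 25.6% of 16352 transcripts tested were called in either direction. PER1 then had a log2 fold change of 0.99, short of the threshold, and ARNTL an adjusted p-value of 0.0526 from edgeR. Without DM replicate 3, 2 transcripts were called.

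Levels can be compared between genes only per length, so the order of the clock genes was read from the deposited RPKM, which scales counts by the listed length and by the counts of the sample. In GM samples the order was PER1, TEF, CLOCK, CRY1, CRY2, ARNTL, HLF and DBP. PER1 stood at 6.74 ± 0.377 RPKM and did not overlap with TEF, at 5.08 ± 1.12 RPKM. From TEF down to ARNTL, at 2.95 ± 0.174 RPKM, each gene overlapped with its neighbour in the order, but not with all of these 5. TEF, at 3.86 RPKM or more, lay above every sample of CRY1, CRY2 and ARNTL. CLOCK, at 3.68 RPKM or more, lay above every sample of CRY2 and ARNTL. HLF at 0.632 ± 0.341 RPKM and DBP at 0.598 ± 0.0889 RPKM overlapped with each other and lay below the rest.

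In DM samples the order was PER1, CRY1, CLOCK, ARNTL, CRY2, TEF, DBP and HLF. PER1 reached 12.7 ± 0.724 RPKM and CRY1 6.17 ± 0.169 RPKM, both clear of every other clock gene. CLOCK (3.87 ± 0.616 RPKM), ARNTL (3.50 ± 0.387) and CRY2 (3.28 ± 0.130) overlapped with their neighbours, and without DM replicate 3 no neighbours overlapped (0 in place of 2). TEF at 2.59 ± 0.152, DBP at 2.06 ± 0.226 and HLF at 1.05 ± 0.174 RPKM were each apart. DBP moved from the last place in GM samples to the seventh, TEF from the second to the sixth and CRY1 from the fourth to the second. The listed lengths range from 920 bases for HLF and 933 for TEF to 3868 for PER1, and these levels depend on them.

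**Figure D3:**
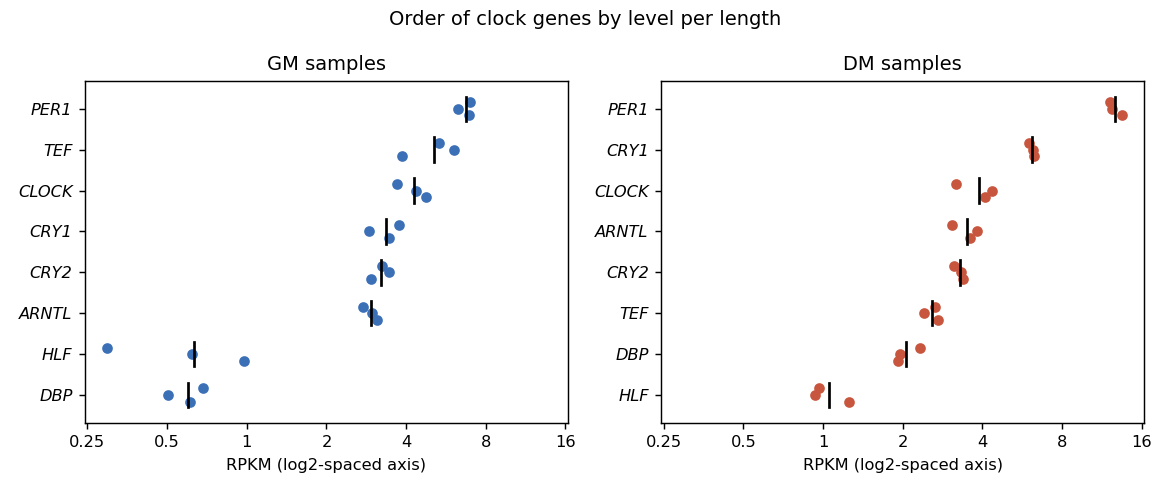
Deposited RPKM of the 8 clock genes in GM samples (left, blue) and DM samples (right, red), each sorted by the group mean. Points are samples, black lines are means, and the axis is log-spaced. PER1 leads in both groups, CRY1 stands second in DM samples, and HLF and DBP are lowest in both.

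The summed level of the 8 genes was 60.6 to 62.1 CPM in GM samples and 89.9 to 102 CPM in DM samples. PER1 alone made up 39.0 to 42.8% of that sum in GM and 51.5 to 53.9% in DM samples. CPM are not scaled by length, and PER1 has the longest listed length of the 8 genes, at 3868 bases. By RPKM the sum was 26.6 to 27.2 in GM samples, with PER1 at 6.74 ± 0.377. In DM samples it was 33.4 to 36.7, with PER1 at 12.7 ± 0.724. The study's rule for reliable expression, an RPKM of 1 or more in over 50% of samples, was met by 6 of the 8 genes. DBP reached that RPKM in 3 of 6 samples, all DM samples, and HLF in 1. With 3 samples a group, a gene that reaches it in a single group cannot meet the rule.

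Ratios of counts between clock genes were taken within each sample, where no normalization between samples is needed. Of 8 ratios planned, 6 were computed, since PER2 and PER3 were not listed. DBP to TEF was 0.292, 0.154 and 0.236 in the GM samples and 1.31, 1.49 and 1.63 in the DM samples. TEF thus held more counts than DBP in every GM sample and fewer in every DM sample. Counts are not scaled by length, and per length TEF stayed above DBP in DM samples (2.59 ± 0.152 and 2.06 ± 0.226 RPKM, without overlap). The mean log2 ratio moved from -2.19 ± 0.472 to 0.56 ± 0.157, a difference of 2.74. CRY1 to CRY2 was 0.904, 0.649 and 0.897 in GM samples and 1.44, 1.45 and 1.47 in DM samples. The 2 cryptochromes therefore changed places in counts, by 0.85 on the log2 scale. Per length they did not, as mean CRY1 was above mean CRY2 in GM samples too (3.36 and 3.21 RPKM, with overlap).

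PER1 to ARNTL, a repressor against its activator, was 3.72, 3.54 and 4.24 in GM samples and 6.25, 5.42 and 6.60 in DM samples. DBP to ARNTL was 0.146, 0.126 and 0.184 in GM samples and 0.397, 0.380 and 0.565 in DM samples. ARNTL to CLOCK, within the activating heterodimer, was 0.592, 0.622 and 0.682 in GM samples and 0.805, 0.799 and 0.880 in DM samples, the smallest difference of the 6 at 0.39 on the log2 scale. TEF to HLF was 4.0, 9.91 and 18.2 in GM samples and 2.20, 2.63 and 2.76 in DM samples, with HLF at 10 counts in GM replicate 3. Groups did not overlap for any of the 6 ratios, and CPM did not overlap for 68.8% of all single genes tested. A share over all pairs of genes was not computed. Some genes enter more than 1 ratio, so the 6 ratios are not independent. An exact two-sided permutation test gave p = 0.1 for each, and 0.1 after Benjamini-Hochberg adjustment over the 6, which is the smallest p that 3 samples against 3 can give, so none could pass 0.05.

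**Figure D4:**
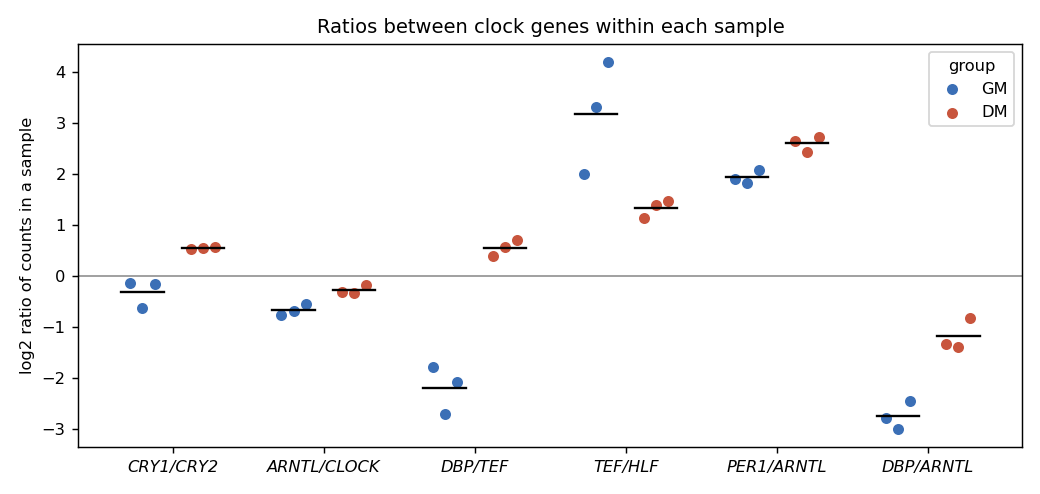
Log2 ratio of the raw counts of 2 clock genes within each sample, for the 6 ratios computed. Points are the 3 GM samples (blue) and the 3 DM samples (red), black lines are group means, and the grey line marks equal counts. DBP to TEF crosses that line with a difference of 2.74, and CRY1 to CRY2 crosses it with a difference of 0.85. Counts are not scaled by length, and neither pair changed order in mean RPKM.

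Other genes of the clock were followed as 6 lists with 82 entries. In the nuclear receptor loop, REV-ERB proteins (NR1D1, NR1D2) repress ARNTL and ROR proteins activate it. None of its 3 tested genes was called, beside 15.0% called higher and 10.3% called lower among all genes tested. At an adjusted p-value under 0.05 and any fold change, 1 was higher and 1 lower. Of all genes tested, 63.0% were under that p-value in either direction. The median log2 fold change of the 3 genes was 0.09. NR1D1 had 229, 296 and 196 counts in GM samples and 116, 118 and 153 in DM samples, with no overlap. Its log2 fold change was -0.72 (adjusted p = 0.00532 from edgeR, standard error 0.18), and its interval overlaps THRA on the opposite strand, from which its reads cannot be told apart without strand. NR1D2 showed a log2 fold change of 0.09, with a 95% confidence interval of -0.13 to 0.32, and -0.005 with library size alone. RORA was higher, with 117, 135 and 115 counts in GM samples and 182, 178 and 215 in DM samples, and its log2 fold change was 0.82 (adjusted p = 0.00119 from edgeR). RORB had 5 counts in DM replicate 1 and none in the other samples, so it was not tested.

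Among 9 other activators and repressors, 1 was called higher and 1 lower, beside 15.0% and 10.3% of all genes tested, and 4 were higher and 2 lower at an adjusted p-value under 0.05 and any fold change, beside 63.0% of all genes under that p-value. Their median log2 fold change was 0.33. ARNTL2, the paralog of ARNTL, rose from 8.15 ± 1.004 to 18.8 ± 0.543 CPM, and its log2 fold change was 1.20 (adjusted p = 4.94e-06 from edgeR, standard error 0.11). NPAS2, the paralog of CLOCK, had 169, 147 and 142 counts in GM samples and 215, 293 and 307 in DM samples. Its log2 fold change fell just short of 1 (95% confidence interval 0.65 to 1.35, adjusted p = 0.000253 from edgeR), and it was called in 6 of 15 alternatives. BHLHE41 and BHLHE40, repressors that compete for E-boxes, were highest in DM replicate 3. BHLHE41 held 177, 163 and 97 counts in GM samples and 167, 190 and 378 in DM samples, and its log2 fold change was 0.92 (adjusted p = 0.0188 from edgeR) and 0.50 without DM replicate 3, and it was called in 3 of 15 alternatives. BHLHE40 had a log2 fold change of 0.33 (adjusted p = 0.0612 from edgeR), and of 0.10 without DM replicate 3. TIMELESS, best known in mammals for its part at the replication fork, fell by 1.95 (log2), with 39.7 ± 0.522 CPM in GM and 10.2 ± 2.19 CPM in DM samples (adjusted p = 3.56e-07 from edgeR). Without DM replicate 3 its log2 fold change was -2.13. NFIL3, a repressor at the D-box elements that DBP activates, was named after its values were seen. It held 2479, 2109 and 2125 counts in GM samples and 3439, 3459 and 3040 in DM samples, and its log2 fold change was 0.74 (adjusted p = 4.03e-05 from edgeR).

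Of 18 kinases, ubiquitin ligase subunits and other factors that set the stability of PER and CRY proteins, 12 were listed and tested, and 1 was called in each direction, beside 15.0% higher and 10.3% lower among all genes. At an adjusted p-value under 0.05 and any fold change, 2 were higher and 7 lower, beside 63.0% of all genes tested in either direction, and the median was -0.18 on the log2 scale. PPP5C, a phosphatase known to act on casein kinase 1, fell by 1.28 (log2), with 133 ± 3.43 CPM in GM and 55.0 ± 2.51 CPM in DM samples (adjusted p = 5.13e-08 from edgeR). Of 15 tested transcriptional cofactors, 1 was called, lower, beside 10.3% of all genes tested. SFPQ, an RNA- and DNA-binding protein found with PER complexes, fell by 1.04 on the log2 scale (adjusted p = 3.54e-07 from edgeR), and its log2 fold change was -0.997, just short of the call, without DM replicate 1. At an adjusted p-value under 0.05 and any fold change, 11 of the 15 cofactors were lower and 1 higher, and their median was -0.34. Of all genes tested, 63.0% were under that p-value in either direction.

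Genes of pathways that feed into the clock, through serum, cAMP and glucocorticoid signals, included 6 of 14 tested that were called higher and none called lower, beside 15.0% and 10.3% of all genes tested. The 3 with the largest changes were FOSB, TSC22D3 and KLF9. FOSB, an AP-1 subunit, held 38, 27 and 25 counts in GM samples and 178, 175 and 261 in DM samples, and its log2 fold change was 2.94 (adjusted p = 1.96e-06 from edgeR). FOSB reached an RPKM of 1 in 3 of 6 samples, all DM samples, which is short of the study's rule for reliable expression. TSC22D3, a glucocorticoid-induced leucine zipper gene, held 169, 148 and 134 counts in GM samples and 807, 983 and 1076 in DM samples, and its log2 fold change was 2.84 (adjusted p = 1.68e-08 from edgeR). KLF9, a Kruppel-like factor also induced by glucocorticoids, rose from 8.45 ± 0.923 to 51.4 ± 10.2 CPM, and its log2 fold change was 2.61 (adjusted p = 1.37e-07 from edgeR). FOS, FKBP5 and SGK1, named after their values were seen, were the others called, with log2 fold changes of 2.26, 1.69 and 1.26. The median of this list was 0.48.

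Of 18 genes known as outputs of the clock, 16 were tested, of which 6 were called higher and 3 lower, beside 15.0% and 10.3% of all genes tested. Without DM replicate 3, 5 were called higher and 3 lower. The median of this list was 0.30 on the log2 scale. PPARGC1A, a coactivator of mitochondrial genes, rose from 14, 6 and 13 counts in GM samples to 144, 143 and 116 in DM samples, and its log2 fold change was 3.77 (adjusted p = 2.83e-06 from edgeR). PPARGC1A reached an RPKM of 1 in 0 of 6 samples and so did not meet the study's rule for reliable expression. KLF15, a regulator of amino acid and lipid use in muscle, rose from 14, 10 and 14 counts to 117, 139 and 158, and its log2 fold change was 3.60 (adjusted p = 8.51e-07 from edgeR). KLF15 reached an RPKM of 1 in 3 of 6 samples, all DM samples, which is short of that rule. Output genes thus changed in both directions.

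**Figure D5:**
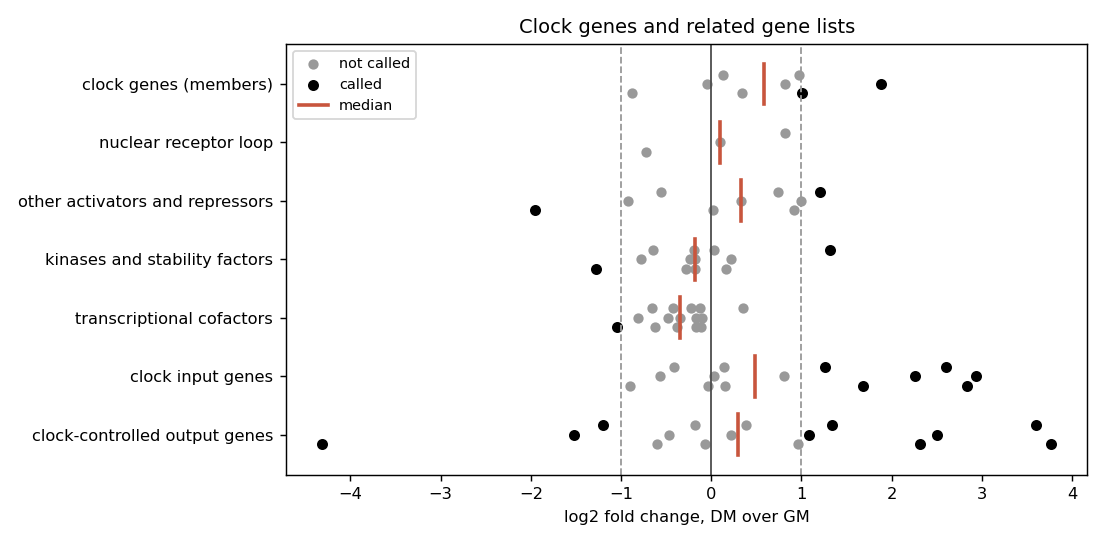
Log2 fold change (DM over GM) of every tested gene of the 8 clock genes and the 6 related lists, 1 row per list. Black points passed both thresholds, grey points did not, red lines are list medians, and dashed lines stand at 1 in either direction. Clock genes lie between -0.87 and 1.88, and the lists of input and output genes hold changes of up to 2.94 and 3.77.

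Genes with a pattern like that of DBP were sought by the Euclidean distance of centred log2 CPM over the 6 samples. The search covered the 8981 genes whose mean reached 10 CPM. DBP itself lay below that mean, at 0.996 CPM in GM and 3.68 CPM in DM samples, so genes at its level were not searched. The nearest of the genes searched were KLHL40, a kelch protein of muscle, at a distance of 0.135, TRIM72, a membrane repair protein, at 0.150 and TMOD1, a cap of actin filaments, at 0.183. KLHL40 went from 9.42 ± 1.62 to 32.2 ± 2.30 CPM, and the log2 fold changes were 1.78 for KLHL40 and 1.90 for both TRIM72 and TMOD1. The distance takes in the difference between the GM and DM samples as well as the spread within each.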

How the data were processed

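PolyA-Seq libraries of 3 GM and 3 DM samples were used. The authors deposited raw counts per gene and per mRNA transcript without normalization, and RPKM scaled by the listed length and the sample's counts. The study's methods name HISAT2 and the buffalo genome, whereas the tables list cattle Ensembl identifiers and no build, so coordinates are as listed. The submitters' processing notes instead name Bowtie 0.12.2 and mouse builds (mm8 and mm9). Which aligner and genome gave the deposited counts is not settled by these sources. Whether counting used strand is not given in the sources used here. The deposited lists of differential features hold the authors' fold changes, p-values and q-values and were not used, nor was the ncRNA table.

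Counts were tested in R 4.3.3 with edgeR 4.0.16 (TMM, glmQLFit and glmQLFTest, Benjamini-Hochberg adjustment) on genes with at least 10 counts in total. Standard errors came from the F statistic. At gene counts of 35615864 to 40305237 per sample, HLF and DBP had the lowest counts of the 8 genes in GM samples. In DM samples, HLF and TEF had the lowest. Ratios were compared by exact permutation in Python 3.11.15 with scipy 1.17.1, pandas 2.3.3 and numpy 2.4.6. The procedure was tested on simulated data.

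The members, lists, tests and named genes were chosen with earlier results of these data known. Named genes were all members, the 3 called genes of largest change per list with a mean of at least 1 CPM, listed NR1D, ROR, NPAS2 and BHLHE4 genes, MYOD1, MYOG and the 3 nearest patterns. Exceptions are stated, and some genes under this rule are not reported here. Alternatives were DESeq2 1.42.0, other normalizations, filters and thresholds, protein-coding genes only, a replicate block and each sample left out. Motif, promoter and protein sequences were not analysed here.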

Additional observations from a re-analysis of the deposited data

How the results depend on the processing

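The direction of change of PER1, CRY1, CRY2, ARNTL, DBP, TEF and HLF was kept in every alternative run, as were the directions of all 6 ratios. CLOCK, near 0, turned to 0.0098 with the RPKM rule (an RPKM of 1 or more in over 50% of samples), 0.038 without GM replicate 1 and 0.086 without DM replicate 3, with -0.143 to 0.0861 over the samples left out, and NR1D2 to -0.0046 with library size alone. Of the 2 called clock genes, both higher, 1 was left with library size alone, with glmTreat (a test against a fold change of 2) or with protein-coding genes only, and 1 to 4 when each sample was left out, of which 1 to 3 were higher and 0 to 1 lower. Without GM replicate 1 there were 4, and without GM replicate 2 or DM replicate 1 there was 1. Without a minimum fold change there were 5, 4 higher and 1 lower. The single called mRNA became 2 with library size alone and 1 to 4 when each sample was left out. Deviations of same-numbered GM and DM samples had correlations of -0.008, -0.022 and -0.010, and those of other pairs -0.012 to 0.024. These values over all genes tested cannot settle whether same-numbered samples share an animal or culture. A replicate block left 2 clock genes called, with an adjusted p-value of 0.0577 from edgeR for ARNTL.

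Among other activators and repressors, those called higher were 2 with DESeq2, its size factors, filterByExpr or the RPKM rule, 0 with glmTreat, and 1 to 3 when each sample was left out. Those called lower were 2 with library size alone and 1 to 2 when each sample was left out. The called cofactor was lost (0) with the RPKM rule and glmTreat, and 0 to 1 were called when each sample was left out. Without a minimum fold change, the higher and lower genes were 1 and 1 in the nuclear receptor loop, 4 and 2 among other activators and repressors, 2 and 7 among stability factors and 1 and 11 among cofactors. Lower genes were then 3 among input genes and 5 among output genes. Neighbours in the order of levels that overlapped were 5 in GM and 2 in DM samples, and 3 to 4 and 0 to 2 when a sample was left out. DBP and HLF did not meet the RPKM rule and were not tested under it, and the 2 clock genes called there were PER1 and CRY1. The cause of these moves was not tested where the setting does not itself show it.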
